A study of Mus musculus with 4 samples.

Results

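Oxidative phosphorylation is carried out in the inner mitochondrial membrane by 4 respiratory chain complexes and the ATP synthase. Complexes I and II pass electrons from NADH and succinate to ubiquinone, complex III passes them on to cytochrome c, complex IV reduces oxygen with them, and the ATP synthase uses the proton gradient that builds up. Most subunits are encoded by nuclear genes, the subject here. Several subunits of complex IV come as pairs of genes, 1 transcribed in most tissues and 1 in few, such as heart and skeletal muscle, lung or testis.

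The genes were chosen by name: names starting with Nduf (complex I), Uqcr (complex III), Atp5 (ATP synthase) or Cox followed by a digit from 4 to 8 (complex IV), and Sdha, Sdhb, Sdhc and Sdhd (complex II). A gene needed at least 3 probes whose input DNA signal was well above background on all 4 arrays. All 83 candidate names met this, of 18332 genes with at least 3 such probes. By name, 36 belong to complex I, 4 to complex II, 7 to complex III, 18 to complex IV and 17 to the ATP synthase, and Ndufaf1 encodes a complex I assembly factor. Cox4nb (now Emc8), Atp5sl (Dmac2) and Atp5s (Dmac2l) carry the names without being subunits of these complexes. Ndufa4, listed with complex I, is now regarded as a subunit of complex IV. The genes had 1289 usable probes, between 4 and 35 each with a median of 16, against a median of 17 over all genes.

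DNA methylation was measured in mouse leukaemic cells by methylated DNA immunoprecipitation (MeDIP), in which an antibody against methylated cytosine enriches methylated fragments, followed by hybridisation to promoter arrays. The study asked how loss of Mll5, a gene related to histone methyltransferases, bears on the response to decitabine, a cytidine analogue that depletes DNA methyltransferases and so lowers DNA methylation. The 4 groups, with 1 array each, were KO cells with decitabine, WT cells with decitabine, KO cells without treatment and WT cells without treatment. Decitabine was given at 20 nM, renewed each 24 h over 3 days, with harvest at 72 h. The medium of every group contained human interleukin-6, murine interleukin-3 and murine stem cell factor. The source names give the knockout as Mll5KOHM and the wild type as Mll5WTHM, whereas the genotype field reads HOXA9 KO and wild type and the cell line field MII5 for all samples; which gene was deleted therefore rests on labels that differ, and no probe value here tests it. The labels name the cells only as leukaemic, and these DNA data do not measure the expression of cell type markers.

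With 1 array a group there was no replicate check, and each array came from a slide of its own, so that slide and group cannot be told apart. MeDIP DNA was the Cy3 channel and input DNA the Cy5 channel on every array. A value is the log2 ratio of MeDIP over input, centred so that the median probe of each array is 0, and gene values are means of that gene's probes, given with the SD over them; probes of a gene share their array and are not replicates. In a bulk culture, fewer cells with methylation at a site and less methylation per cell cannot be told apart. A probe is called bright where its MeDIP signal was well above background by the scanner software's own flag. Few were: of the probes of all genes, 16.0% were bright in KO decitabine, 14.2% in WT decitabine, 4.06% in KO untreated and 4.07% in WT untreated cells. For 37.6% of these probes in KO decitabine, 38.7% in WT decitabine, 58.8% in KO untreated and 60.7% in WT untreated cells, the software had replaced the MeDIP signal by a surrogate value near its background. Ratios of dim probes are therefore set in part by background and by input, and for single probes a fold is given only where at least 1 of the arrays was bright, as a lower bound where the other was not. Among the members' 1289 probes, 196 (15.2%) were bright in KO decitabine, 165 (12.8%) in WT decitabine, 50 (3.88%) in KO untreated and 39 (3.03%) in WT untreated cells, shares close to those of all genes on each array.

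The sequences below are the CpG-dense probes of members that were bright with decitabine, chosen as examples for the ATP synthase and each complex with such a probe; CpG dinucleotides, the methylation sites, are in capitals. Letters are those of the array design, and positions are on mm9. Each probe lies within 500 bp of a start site.
Ndufv1 (chr19:4012757-4012801): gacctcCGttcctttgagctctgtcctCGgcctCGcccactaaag
Ndufa6 (chr15:82184657-82184701): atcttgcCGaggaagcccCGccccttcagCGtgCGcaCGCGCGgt
Sdha (chr13:74487622-74487666): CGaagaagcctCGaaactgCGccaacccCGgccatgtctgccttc
Cox7c (chr13:86185996-86186040): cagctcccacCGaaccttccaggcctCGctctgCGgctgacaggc
Cox6a1 (chr5:115798923-115798967): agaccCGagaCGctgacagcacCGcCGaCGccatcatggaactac
Atp5e (chr2:174289603-174289647): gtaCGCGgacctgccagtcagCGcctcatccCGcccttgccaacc
Atp5c1 (chr2:10001887-10001931): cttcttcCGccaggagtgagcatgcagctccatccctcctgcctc

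CpG-dense windows of 500 bp (observed over expected CpG of at least 0.75 and at least 55% GC) held 114 of the members' probes, in 52 genes. Of these, 18 (15.8%) were bright in KO decitabine, 16 (14%) in WT decitabine, 1 (0.877%) in KO untreated and 1 (0.877%) in WT untreated cells. Over all genes the shares of CpG-dense probes were 22.0% in KO decitabine, 19.4% in WT decitabine, 5.61% in KO untreated and 4.27% in WT untreated cells. For the 198 CpG-dense probes of the ribosomal protein genes, the shares were 11.6% in KO decitabine, 11.1% in WT decitabine, 3.03% in KO untreated and 3.03% in WT untreated cells. The members thus lay below all genes on the 4 arrays, above the ribosomal protein genes on the decitabine arrays and below them on the untreated ones, with no test. In all, 21 CpG-dense probes of 19 members were bright on some array, and 18 of them lay within 500 bp of a start site. 20 of the 21 (95.2%), in 18 members, were bright on decitabine arrays only, against 73.6% of the 7287 such probes of all genes and 66.7% of the 27 of the ribosomal protein genes. Of the 21, 12 (57.1%) were bright on both decitabine arrays only, against 45.3% for all genes and 48.1% for the ribosomal protein genes. With 21 probes, nothing particular to the members is read from these shares, and no test was run. The exception was an intronic Cox5a probe 245 bp downstream of the start, chr9:57369262-57369306, which was bright on all 4 arrays. Cox5a encodes a nuclear subunit of complex IV. The other 93 CpG-dense probes were bright on no array.

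Sdha encodes the flavoprotein subunit of complex II, which oxidises succinate. Its probe over the start site, in an exon, had MeDIP signals (scanner units) of 3406 in KO decitabine, 2102 in WT decitabine, 1039 in KO untreated and 304 in WT untreated cells. The input signals of that probe were 2763 in KO decitabine, 4143 in WT decitabine, 2445 in KO untreated and 3822 in WT untreated cells. It was bright on both decitabine arrays and on neither untreated array. Set against the lowest bright signal of the untreated array, the ratio was at least 3.42-fold higher with decitabine in KO cells and at least 1.39-fold higher in WT cells.

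Atp5e encodes the epsilon subunit of the ATP synthase's catalytic head. Its exonic probe at the start site had log2 ratios of -0.20 in KO decitabine, -1.02 in WT decitabine, -1.77 in KO untreated and -2.86 in WT untreated cells, bright on both decitabine arrays only. The bounds were at least 2.82-fold higher with decitabine in KO cells and at least 2.70-fold in WT cells. Cox7c, a complex IV subunit, had an exonic probe with ratios of -0.15 in KO decitabine, -0.98 in WT decitabine, -1.84 in KO untreated and -2.85 in WT untreated cells. It too was bright on both decitabine arrays only, with bounds of at least 2.55-fold in KO cells and at least 2.79-fold in WT cells. Ndufv1, the complex I subunit that binds NADH, had bounds of at least 1.82-fold in KO cells and at least 1.26-fold in WT cells at the probe over its start. A bound is given only where the decitabine array was bright and the untreated one was not, so these bounds could point one way only and carry no weight for the direction. They rest on single probes of single arrays, and on centring each array on all of its probes.

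**Figure D1:**
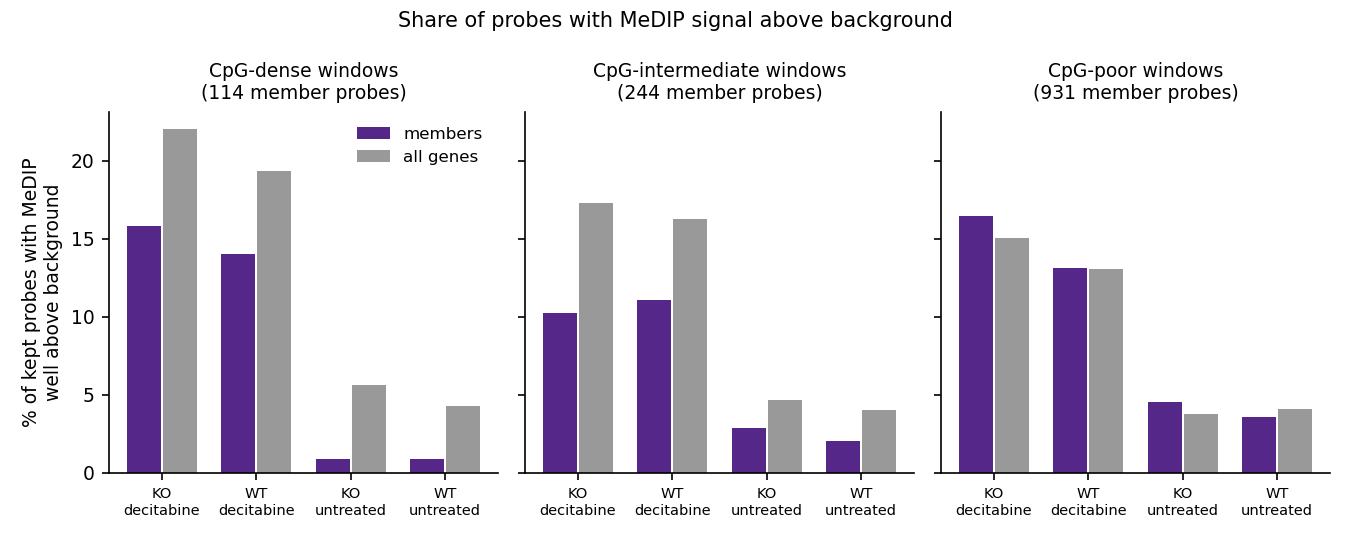
Share of probes (%) whose MeDIP signal was well above background, by CpG density of the 500 bp window and by array (KO decitabine, WT decitabine, KO untreated, WT untreated), for the members (purple bars) and all genes (grey bars). In CpG-dense windows the members' share is 15.8% and 14% on the KO and WT decitabine arrays and 0.877% on each untreated array.

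CpG-poor windows (observed over expected CpG under 0.48) held 931 of the members' probes. The bright share there was 16.4% in KO decitabine, 13.1% in WT decitabine, 4.51% in KO untreated and 3.54% in WT untreated cells, against 15.0% in KO decitabine, 13.1% in WT decitabine, 3.75% in KO untreated and 4.05% in WT untreated cells for the CpG-poor probes of all genes. In intermediate windows, with 244 member probes, the share was 10.2% in KO decitabine, 11.1% in WT decitabine, 2.87% in KO untreated and 2.05% in WT untreated cells, against 17.3% in KO decitabine, 16.3% in WT decitabine, 4.64% in KO untreated and 4.05% in WT untreated cells for all genes. For the 280 intermediate probes of the ribosomal protein genes the share was 13.2% in KO decitabine, 13.2% in WT decitabine, 3.93% in KO untreated and 3.21% in WT untreated cells. Members and ribosomal protein genes were thus both below all genes in intermediate windows, again with no test.

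The median ratio of the 386 probes within 500 bp of a start site was -0.72 in KO decitabine, -0.85 in WT decitabine, -0.95 in KO untreated and -1.0 in WT untreated cells. From 500 to 2000 bp downstream, for 285 probes, it was -0.39 in KO decitabine, -0.25 in WT decitabine, -0.47 in KO untreated and -0.48 in WT untreated cells. Of the probes near a start site, 26.9% lay in CpG-dense windows, against 0.351% of those downstream, with medians of 24.5 and 6 CpGs a window. Of all member probes, 279 (21.6%) overlapped an exon, 576 (44.7%) lay in introns and 434 (33.7%) between genes.

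Across the 4 arrays, 1056 of the 1289 member probes (81.9%) were bright nowhere, against 81.2% for all genes. Another 79 (6.13%) were bright on both decitabine arrays only, against 6.85% for all genes, and none on both untreated arrays only. The KO and WT decitabine arrays shared 134 bright probes, which is 68.4% of the 196 in KO and 81.2% of the 165 in WT cells. For all genes these shares were 73.3% of KO and 83.0% of WT bright probes, and for the ribosomal protein genes 74.9% and 86.3%. The untreated arrays shared 27, which is 54% of the 50 in KO and 69.2% of the 39 in WT cells, against 65.0% and 64.9% for all genes and 71.7% and 67.2% for the ribosomal protein genes. The members' overlaps were thus near or below those of all genes, apart from the WT untreated share, which was higher on 39 probes. By gene, 36 members (43.4%) had bright probes on decitabine arrays only, against 31.7% of all genes and 33.3% of the ribosomal protein genes, a difference that was not tested. Another 24 (28.9%) had one on every array, against 37.2% of all genes. A further 9 (10.8%) had none on any array, against 12.3% of all genes: Ndufa4, Ndufa9, Ndufa12, Ndufb10 and Ndufs1 of complex I by name, Uqcrc1, Uqcrfs1 and Uqcrq of complex III, and Cox6a2 of complex IV.

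The 27 member probes that were bright on all 4 arrays, in 22 genes, allow differences with no surrogate on either side. Of them, 23 (85.2%) lay in CpG-poor windows and 16 (59.3%) held no CpG in their own letters, against 69.5% and 49.1% of the 8596 such probes of all genes. 5 are shown here because they span that range, CpGs again in capitals.
Cox4i2 (chr2:152578798-152578852): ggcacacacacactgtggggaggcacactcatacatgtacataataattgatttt
Ndufb6 (chr4:40224035-40224085): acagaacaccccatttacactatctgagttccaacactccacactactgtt
Ndufa4l2 (chr10:126948481-126948534): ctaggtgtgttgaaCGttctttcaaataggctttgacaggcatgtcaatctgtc
Cox5a (chr9:57369262-57369306): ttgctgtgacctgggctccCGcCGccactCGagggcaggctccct
Ndufa6 (chr15:82186627-82186677): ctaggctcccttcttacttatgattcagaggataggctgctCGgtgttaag

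With decitabine, 26 of the 27 were higher in KO cells (median difference 0.86, range -0.28 to 1.69) and 18 were higher in WT cells (median 0.25, range -0.63 to 1.51). Over all genes, 8023 of the 8596 were higher with decitabine in KO cells (median 0.92) and 7070 in WT cells (median 0.77). Between genotypes, 19 of the 27 were higher in KO cells under decitabine (median 0.24) and 8 without treatment (median -0.44), against 6177 and 5053 of the 8596 (medians 0.31 and 0.16). These medians stand relative to the centre of all probes, and were not tested between lists.

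Gene by gene, the means of the 83 members were spread widely on every array. The median gene stood at -0.46 in KO decitabine (range -1.73 to 0.33), -0.38 in WT decitabine (-1.32 to 0.25), -0.61 in KO untreated (-1.91 to -0.05) and -0.67 in WT untreated cells (-1.58 to 0.06). Medians over all genes were -0.46 in KO decitabine, -0.48 in WT decitabine, -0.64 in KO untreated and -0.72 in WT untreated cells. Those of 81 genes for cytosolic ribosomal proteins, another large set of widely transcribed genes, were -0.59 in KO decitabine, -0.47 in WT decitabine, -0.80 in KO untreated and -0.73 in WT untreated cells.

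**Figure D2:**
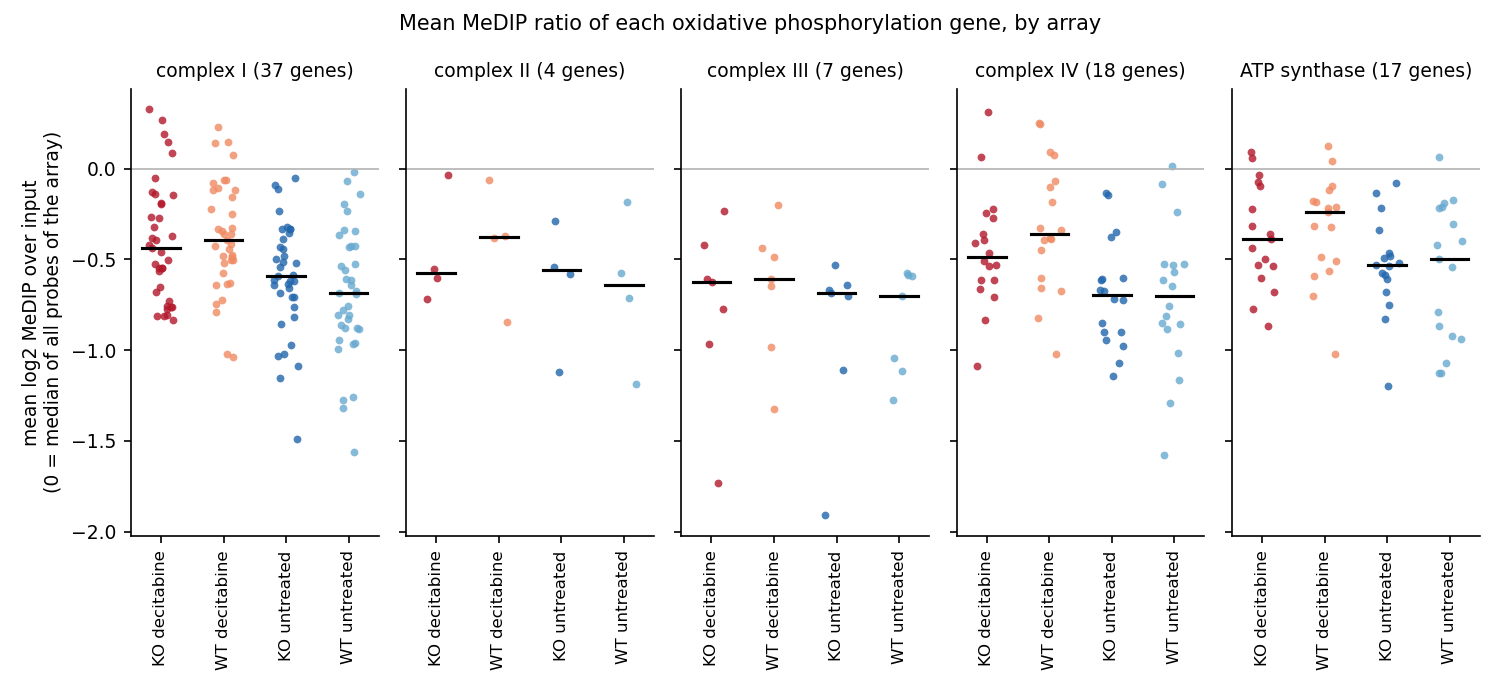
Mean log2 MeDIP over input of each gene (1 point a gene, 0 being the median of all probes of the array) by complex and array; black lines are medians, and Ndufaf1 is drawn with complex I. In every complex the points of each array spread over more than the distance between the medians; the lowest point of complex III is Uqcrq in KO untreated cells.

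Decitabine was set against no treatment within each genotype. A gene was called where its mean differed by at least 2-fold (1 on the log2 scale) with at least 80% of its probes moving that way. In KO cells 0 members were called higher with decitabine, against 1.14% of all genes, and 0 lower, against 0.0109%. The differences in KO cells were above 0 for 61 of the 83 (73.5%), against 76.1% of all genes, with a median of 0.20 and of 0.21 over all genes; the members' median was -0.10 with the deposited log ratio, -0.13 with loess and -0.67 when arrays were centred on their bright probes. Complex IV had 15 of 18 above 0 (median 0.27) and the ATP synthase 10 of 17 (median 0.06).

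In WT cells 2 of the 83 members, Cox4i1 and Cox4i2, were called higher with decitabine, where 1.36% of all genes were called, and 0 lower, where 0.0218% were. A count this small shows nothing against that background. The differences in WT cells were above 0 for 71 of the 83 (85.5%), where 79.7% of all genes were, with a median of 0.29, against 0.25 over all genes and 0.31 over the ribosomal protein genes; the members' median was -0.05 with loess and -0.31 when arrays were centred on their bright probes. By complex, 34 of 36 genes of complex I, 4 of 4 of complex II, 5 of 7 of complex III, 15 of 18 of complex IV and 12 of 17 of the ATP synthase were above 0. The members' median thus followed that of all genes.

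KO was then set against WT cells. Under decitabine 0 members were called in either direction, where 0.524% of all genes were called higher and 0.0655% lower, and 32 of 83 differences (38.6%) were above 0, where 55.5% of all genes were (median -0.04, all genes 0.04). Without treatment 0 were called in either direction, where 0.327% of all genes were called higher and 0.0927% lower, and 46 of 83 (55.4%) were above 0, where 62.9% of all genes were (median 0.04, all genes 0.09). The sign of both medians turns under some of the other settings given at the close. The comparisons share arrays and are not independent of each other.

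**Figure D3:**
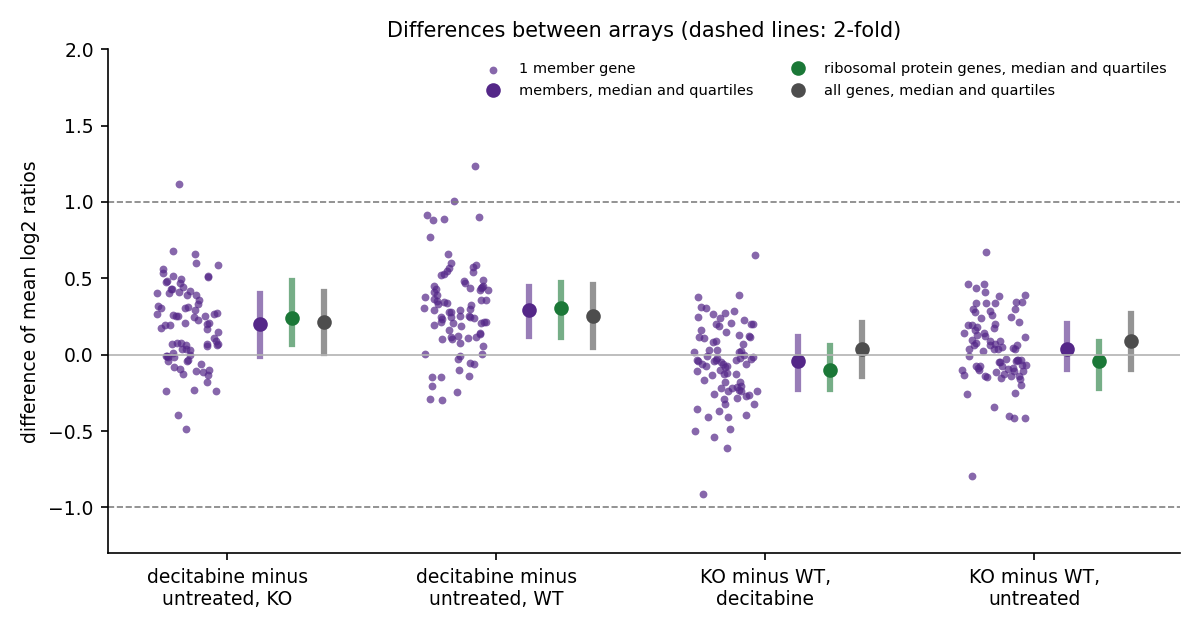
Difference of mean log2 ratios (1 point a member gene) in the 4 comparisons, with the median (dot) and quartiles (bar) of the members, the ribosomal protein genes and all genes; dashed lines mark 2-fold. The members' medians are 0.20 for decitabine in KO cells, 0.29 for decitabine in WT cells, -0.04 for KO minus WT under decitabine and 0.04 for KO minus WT without treatment; the sign of each depends on the scaling, and all lie inside the quartiles of all genes.

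An additive model of treatment and genotype was fitted over all 18332 genes with limma, on 4 arrays and with 1 residual degree of freedom per gene, which is the interaction. Its p-values measure departures from additivity between these arrays and not the spread between cultures. For decitabine 25 of 83 members passed an adjusted p of 0.05, where 31.5% of all genes did; 24 were higher, where 29.8% of all genes were, and 1 was lower, where 1.73% were. The members' share was near the background. The direction depends on the centring: with arrays centred on their bright probes 47 members passed, all lower, where 54.8% of all genes were lower. With the deposited log ratio 0 members passed, where 1.46% of all genes did, and with loess 0, where 0.0655% did. At an unadjusted p under 0.05 there were 7 members with the deposited log ratio, beside 2002 of all 18332 genes. With loess there were 14 members, beside 3058 of all genes. For genotype 1 member passed, where 4.09% of all genes did; 0 were higher (all genes 2.96%) and 1 was lower (all genes 1.12%). By complex, 11 of 36 genes of complex I passed for decitabine, 1 of 4 of complex II, 0 of 7 of complex III (0 at an unadjusted p under 0.05), 9 of 18 of complex IV and 4 of 17 of the ATP synthase. These groups are by name. The 9 passing genes under complex IV were 8 that were higher and Cox6a2, which was lower. Cox4nb, which is not a subunit, is among the 8.

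Complex I takes electrons from NADH. Ndufa13, also known as Grim19, had the largest decitabine effect of that complex in limma, 0.83 (SE 0.15) with adjusted p = 0.00558. Its mean ratio was -0.37 in KO decitabine, -1.02 in WT decitabine, -1.49 in KO untreated and -1.56 in WT untreated cells. It rests on 4 probes, all CpG-dense, of which 1 was bright, in KO decitabine cells. At that bright probe the bound was at least 1.90-fold higher with decitabine in KO cells. Over CpG-dense probes alone, the median decitabine effect of all genes was 0.60 and 56.8% of them passed. Over all usable probes that median was 0.23. Ndufs1, the largest iron-sulfur subunit, passed limma for decitabine (adjusted p = 0.00816), with ratios of -0.52 in KO decitabine, -0.49 in WT decitabine, -1.02 in KO untreated and -1.26 in WT untreated cells. None of its 9 probes was bright, so no fold is given.

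Accessory subunits made up most of the other passing genes of complex I. Ndufb2 had ratios of -0.55 in KO decitabine, -0.75 in WT decitabine, -1.03 in KO untreated and -1.32 in WT untreated cells, and its bright probes, of 16, numbered 4 in KO decitabine, 4 in WT decitabine, 3 in KO untreated and 1 in WT untreated cells. Its limma effect of decitabine was 0.53 (SE 0.12), adjusted p = 0.0127. Ndufb8 differed with decitabine by 0.21 ± 0.84 in KO cells and by 0.58 ± 1.15 in WT cells, where 13 of 17 probes were higher. Ndufa6 was the member with the most bright probes on 1 array: of 25, 11 in KO decitabine, 7 in WT decitabine, 2 in KO untreated and 2 in WT untreated cells. Its ratio was 0.33 in KO decitabine, -0.06 in WT decitabine, -0.23 in KO untreated and -0.43 in WT untreated cells, and its limma effect 0.46 (SE 0.13) with adjusted p = 0.0223. At its probe bright on all arrays, printed above, the ratio was 2.57 in KO decitabine, 1.23 in WT decitabine, 0.98 in KO untreated and 0.80 in WT untreated cells.

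The intronic Ndufb6 probe printed above was among the brightest by ratio, with 2.30 in KO decitabine, 2.27 in WT decitabine, 0.72 in KO untreated and 1.25 in WT untreated cells, and a neighbouring probe had 2.18 in KO decitabine, 2.15 in WT decitabine, 1.06 in KO untreated and 1.54 in WT untreated cells. Neither holds a CpG. Over its 17 probes Ndufb6 differed between KO and WT cells by -0.34 ± 0.95 without treatment. Ndufb4 differed by -0.42 ± 0.71 and Ndufb7 by 0.47 ± 0.83 between KO and WT cells without treatment. Each of these is smaller than the spread over the gene's probes.

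Ndufs3, a core subunit, differed with decitabine by -0.18 ± 0.77 in KO and 0.21 ± 0.32 in WT cells, and the accessory Ndufa10 by -0.12 ± 0.74 and 0.06 ± 0.61 in KO and WT cells. Neither passed limma for decitabine. Ndufs6, an accessory subunit, differed by 0.31 ± 0.65 between KO and WT cells under decitabine, with 10 of 14 probes higher in KO cells.

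The members on the X chromosome were Ndufa1, Ndufb11 and Cox7b. All 3 were higher with decitabine, Ndufa1 by 0.44, Ndufb11 by 0.59 and Cox7b by 0.32 in KO cells, and by 0.45, 0.36 and 0.43 in WT cells. Of all genes, 76.1% were above 0 with decitabine in KO cells and 79.7% in WT cells. All 3 passed limma for decitabine, with adjusted p of 0.0227 for Ndufa1, 0.0211 for Ndufb11 and 0.0416 for Cox7b. Of all genes 31.5% passed, and 0 members passed with the deposited log ratio or with loess. With 3 genes, nothing particular to the X chromosome is read from this. Ndufb11 and Cox7b had no bright probe in untreated cells, and Ndufa1 had 1 in KO and 2 in WT untreated cells.

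Complex II has no mitochondrially encoded subunit. Sdhb, its iron-sulfur subunit, had ratios of -0.72 in KO decitabine, -0.84 in WT decitabine, -1.12 in KO untreated and -1.19 in WT untreated cells and passed limma for decitabine, with an effect of 0.37 (SE 0.12) and adjusted p = 0.0416. It had 2 bright probes of 21 in KO decitabine, 4 in WT decitabine and 0 on each untreated array. Sdha as a whole gene had ratios of -0.60 in KO decitabine, -0.38 in WT decitabine, -0.54 in KO untreated and -0.58 in WT untreated cells, although its start site probe moved as described above. Sdhc and Sdhd, the membrane anchors, differed with decitabine by 0.26 ± 0.67 and 0.03 ± 0.56 in KO cells and by 0.12 ± 0.76 and 0.34 ± 0.92 in WT cells. Sdha, Sdhc and Sdhd did not pass limma (adjusted p = 0.709, 0.25 and 0.285).

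Complex III had the lowest share of bright probes of the 5 enzymes on each array, 8.16% in KO decitabine, 6.12% in WT decitabine, and 1.02% in both KO and WT untreated cells. Uqcrq, a small subunit of this complex, was the 1 member that passed limma for genotype, lower in KO cells, with adjusted p = 0.0416. Its mean ratio was -1.73 ± 1.25 in KO decitabine, -1.32 ± 0.84 in WT decitabine, -1.91 ± 1.06 in KO untreated and -1.12 ± 0.90 in WT untreated cells (SD over 10 probes). The value is lower in KO than in WT cells under both conditions, but none of its probes was bright on any array, so no fold is given. Over its 5 CpG-dense probes alone the genotype effect was 0.10, of the other sign. The largest gap between genotypes was at the probe 874 bp upstream, with ratios of -3.27 in KO decitabine, -0.97 in WT decitabine, -2.42 in KO untreated and 0.37 in WT untreated cells.

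Complex IV holds the pairs of tissue-restricted and widely transcribed subunits. The promoters of the pair for subunit 4, and of Cox8b, are printed because they show how far such genes differ in CpG content; each is the 250 bp before the start site, read in the direction of transcription from mm9.
Cox4i2 promoter (chr2:152579659-152579908, plus strand): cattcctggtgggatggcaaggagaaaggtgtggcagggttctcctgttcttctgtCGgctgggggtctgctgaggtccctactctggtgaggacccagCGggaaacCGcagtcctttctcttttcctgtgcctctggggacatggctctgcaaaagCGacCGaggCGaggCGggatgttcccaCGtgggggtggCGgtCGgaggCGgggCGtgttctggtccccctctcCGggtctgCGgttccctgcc
Cox4i1 promoter (chr8:123191940-123192189, plus strand): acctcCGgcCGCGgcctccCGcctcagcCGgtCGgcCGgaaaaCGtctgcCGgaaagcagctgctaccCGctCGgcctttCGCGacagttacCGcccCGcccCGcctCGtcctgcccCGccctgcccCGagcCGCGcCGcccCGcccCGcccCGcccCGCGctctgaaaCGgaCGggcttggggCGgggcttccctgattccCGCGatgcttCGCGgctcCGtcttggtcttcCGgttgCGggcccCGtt
Cox8b promoter (chr7:148086346-148086595, minus strand): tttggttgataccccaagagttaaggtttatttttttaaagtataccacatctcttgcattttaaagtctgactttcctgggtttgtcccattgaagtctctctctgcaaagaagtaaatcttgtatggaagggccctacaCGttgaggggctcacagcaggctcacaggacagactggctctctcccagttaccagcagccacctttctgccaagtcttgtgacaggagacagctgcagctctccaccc

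These windows held 14 CpGs for Cox4i2, 38 for Cox4i1 and 1 for Cox8b. The median was 7 CpGs for the 7 restricted isoforms and 14 for the other 76 members. By the same limits as above, 0 of the 7 and 24 of the 76 windows were CpG-dense, and 5 of the 7 and 13 of the 76 were CpG-poor. These windows lie before the outer end of the gene record, whereas probe distances run to the nearest annotated start, which can differ. For Cox7c the promoter window held 2 CpGs, while its probe 47 bp from a start lay in a 500 bp window with 33. Cox4i1 had no usable probe in its promoter: its 18 probes lay from 738 to 5234 bp downstream of the start. Cox4nb starts beside Cox4i1 in the other direction. Its probe at chr8:123191897-123191941, in an exon and with 7 CpGs, overlaps only the edge of the printed Cox4i1 stretch. The CpGs in the probe's own letters lie outside that stretch. MeDIP enriches whole fragments, so the share of the printed CpGs in this probe's signal cannot be told. It was bright on both decitabine arrays only, with ratios of 0.15 in KO decitabine, -1.09 in WT decitabine, -2.11 in KO untreated and -3.45 in WT untreated cells.

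Cox4i2, on chr2:152579909-152590773, plus strand, encodes the isoform of subunit 4 found mostly in lung and raised at low oxygen. Its mean ratio was -0.22 ± 0.72 in KO decitabine, -0.34 ± 0.76 in WT decitabine, -0.90 ± 0.91 in KO untreated and -1.58 ± 1.10 in WT untreated cells (SD over 18 probes). Both decitabine arrays stood above both untreated arrays, and WT untreated cells were lowest. Its bright probes numbered 4 in KO decitabine, 9 in WT decitabine, 3 in KO untreated and 1 in WT untreated cells. The difference with decitabine was 0.68 ± 0.64 in KO cells, with 15 of 18 probes higher, and 1.24 ± 1.05 in WT cells, with 16 of 18 higher, the largest among the members in WT cells. In limma its decitabine effect was 0.96 (SE 0.15), adjusted p = 0.00316. At the single probe bright on all 4 arrays, 1084 bp upstream and with no CpG, the ratio was 0.30 in KO decitabine, 0.34 in WT decitabine, -0.30 in KO untreated and 0.21 in WT untreated cells, a smaller difference in WT cells than that of the whole gene. The gene differed between KO and WT cells by 0.11 ± 0.54 under decitabine, and by 0.67 ± 0.69 without treatment, with 15 of 18 probes higher in KO cells.

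**Figure D4:**
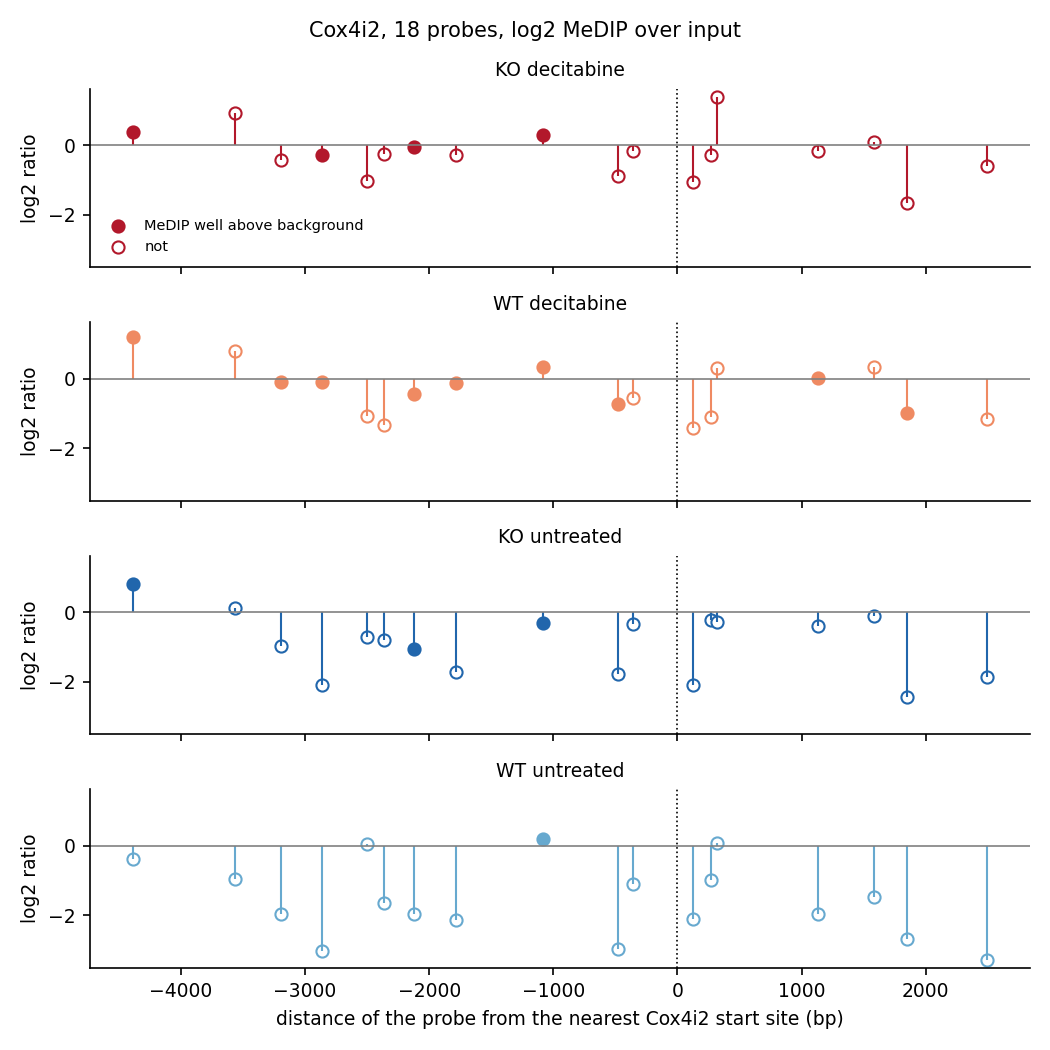
Log2 MeDIP over input of the 18 Cox4i2 probes by distance from the start site (bp; dotted line at 0), 1 panel an array. Filled points are bright: 4 in KO decitabine, 9 in WT decitabine, 3 in KO untreated and 1 in WT untreated cells, mostly upstream of the start.

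Cox4i1, on chr8:123192190-123198109, plus strand, encodes the widely transcribed isoform. Its ratio was -0.36 ± 1.07 in KO decitabine, 0.25 ± 1.02 in WT decitabine, -0.61 ± 0.75 in KO untreated and -0.76 ± 1.01 in WT untreated cells (SD over 18 probes). The difference with decitabine was 0.25 ± 0.88 in KO cells and 1.01 ± 0.94 in WT cells, where 15 of 18 probes were higher and the gene was called. Its bright probes numbered 4 in KO decitabine, 3 in WT decitabine, 0 in KO untreated and 0 in WT untreated cells, so no fold is given against untreated cells. Under decitabine KO minus WT cells came to -0.61 on the log2 scale, with 14 of 18 probes lower in KO cells. Its limma effect of decitabine was 0.63 (SE 0.17), adjusted p = 0.0218, and -0.11 with arrays centred on their bright probes.

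Cox6b2, the testis isoform of subunit 6B, had ratios of 0.31 in KO decitabine, 0.07 in WT decitabine, -0.35 in KO untreated and -0.81 in WT untreated cells, and its bright probes, of 9, numbered 3 in KO decitabine, 2 in WT decitabine, 1 in KO untreated and 0 in WT untreated cells. In limma it was higher with decitabine by 0.77 (SE 0.13), adjusted p = 0.00367. Its counterpart Cox6b1 was higher by 0.49 (SE 0.12), adjusted p = 0.0179. Cox8b, the muscle isoform of subunit 8 in the mouse, had ratios of -0.61 in KO decitabine, -0.39 in WT decitabine, -0.95 in KO untreated and -1.29 in WT untreated cells, and its bright probes, of 23, numbered 3 in KO decitabine, 3 in WT decitabine, 0 in KO untreated and 0 in WT untreated cells. With decitabine 13 of its probes were higher in KO cells and 20 in WT cells. Its limma effect was 0.62 (SE 0.15), adjusted p = 0.0153. Cox8a, its widely transcribed counterpart, differed with decitabine by 0.11 ± 0.85 in KO and 0.45 ± 1.10 in WT cells, and by -0.54 ± 0.48 between KO and WT cells under decitabine.

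Cox6a2, the heart and skeletal muscle isoform of subunit 6A, was the 1 member lower with decitabine in limma (adjusted p = 0.0408). Its ratios were -1.09 in KO decitabine, -0.82 in WT decitabine, -0.61 in KO untreated and -0.53 in WT untreated cells, and none of its 11 probes was bright. Cox6a1 moved the other way, with ratios of -0.25 in KO decitabine, -0.18 in WT decitabine, -0.72 in KO untreated and -0.61 in WT untreated cells and adjusted p = 0.0216. Ndufa4l2, raised at low oxygen, had ratios of -0.27 in KO decitabine, -0.48 in WT decitabine, -0.69 in KO untreated and -0.97 in WT untreated cells over 35 probes. Its bright probes numbered 6 in KO decitabine, 6 in WT decitabine, 3 in KO untreated and 3 in WT untreated cells. It passed limma for decitabine at 0.45 (SE 0.12), adjusted p = 0.0219. Ndufa4 had no bright probe and ratios of -0.73 in KO decitabine, -0.33 in WT decitabine, -0.33 in KO untreated and -0.23 in WT untreated cells. The testis isoforms Cox7b2 and Cox8c had ratios of -0.27 in KO decitabine, 0.09 in WT decitabine, -0.14 in KO untreated and 0.02 in WT untreated cells and of 0.06 in KO decitabine, 0.24 in WT decitabine, -0.13 in KO untreated and -0.09 in WT untreated cells, and neither passed limma (adjusted p = 0.877 and 0.123). Cox7a2, whose muscle counterpart was not analysed here, differed with decitabine by 0.27 ± 0.83 in KO and 0.19 ± 0.75 in WT cells.

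As a group, the 7 restricted isoforms had median differences with decitabine of 0.33 in KO and 0.49 in WT cells, against 0.20 and 0.28 for the other 76 members, and their 6 counterparts had 0.29 and 0.44. Within the 7 the differences ran from -0.48 to 0.68 in KO and from -0.29 to 1.24 in WT cells. Under decitabine all 6 counterparts were lower in KO than in WT cells, with differences from -0.61 to -0.06, and 4 of the 7 restricted isoforms were. So were 51 of the 83 members and 8159 of all 18332 genes. The members' median in this comparison was -0.04 here and 0.060 with normexp. No test was run on these lists, and with 6 genes nothing particular to the counterparts is read from this.

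**Figure D5:**
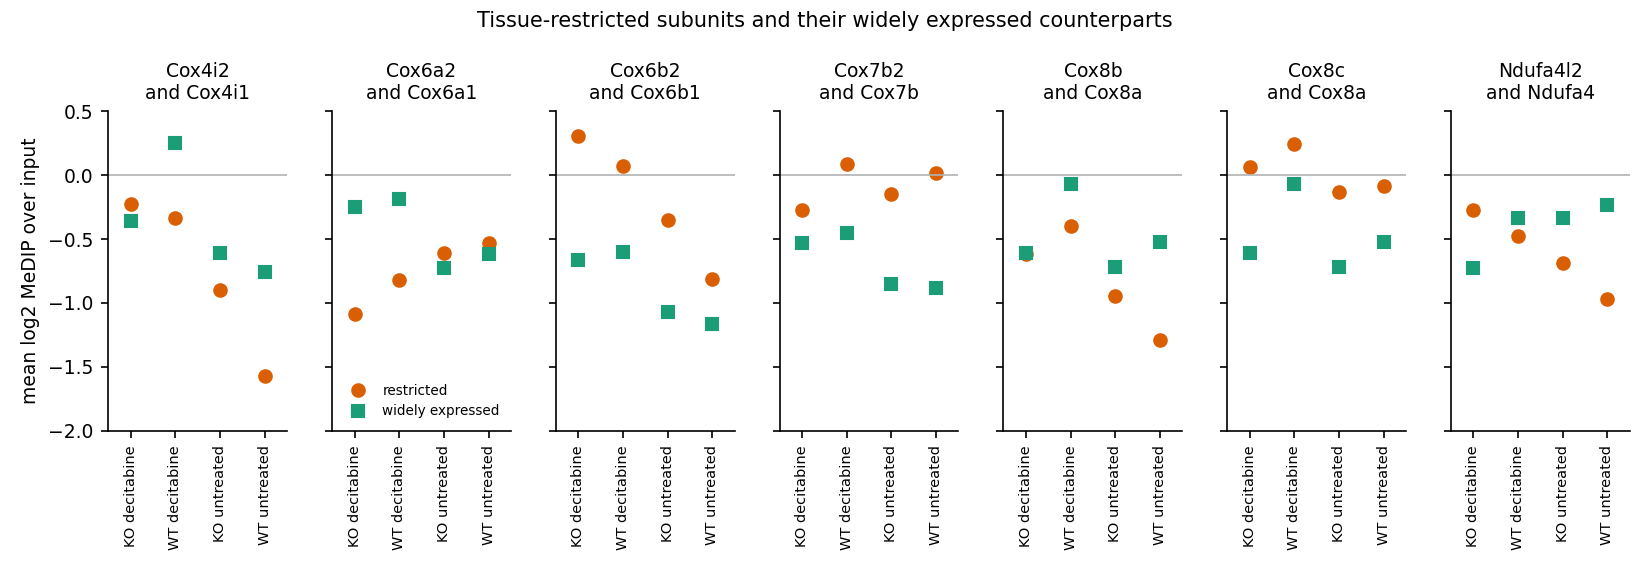
Mean log2 MeDIP over input of each tissue-restricted subunit gene (orange circles) and its widely expressed counterpart (green squares) on the 4 arrays. In this scaling Cox4i2, Cox6b2, Cox8b, Cox8c and Ndufa4l2 stand higher on both decitabine arrays than on both untreated arrays, Cox6a2 stands lower, and Cox7b2 does neither.

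The ATP synthase had 4 genes that passed limma for decitabine, all higher: Atp5h, of the peripheral stalk (0.59 (SE 0.15), adjusted p = 0.0194), Atp5d, the delta subunit (0.47 (SE 0.12), adjusted p = 0.0194), Atp5b, the catalytic beta subunit (0.43 (SE 0.12), adjusted p = 0.0264), and Atp5g2, a gene for the membrane ring subunit (0.39 (SE 0.13), adjusted p = 0.0401). Atp5e had the largest difference between the genotypes' responses. Its mean ratio was -0.87 ± 0.78 in KO decitabine, 0.04 ± 1.40 in WT decitabine, -0.75 ± 0.86 in KO untreated and -0.87 ± 1.26 in WT untreated cells (SD over 14 probes). WT decitabine cells stood apart from the other 3 groups. The difference with decitabine was -0.11 ± 0.64 in KO cells, where 5 of 14 probes were higher, and 0.91 ± 0.97 in WT cells, where 13 were. Under decitabine KO minus WT cells came to -0.91, with 11 of 14 probes lower in KO cells, short of the call. Bright probes numbered 1 in KO decitabine, 3 in WT decitabine, 0 in KO untreated and 0 in WT untreated cells. At its start site probe, described above, both decitabine arrays were bright.

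Of the small membrane subunits, Atp5j2 differed with decitabine by 0.19 ± 1.09 in KO and -0.14 ± 0.73 in WT cells, Atp5l by -0.04 ± 0.62 in KO and -0.03 ± 0.45 in WT cells, and Atp5k by -0.04 ± 0.82 and 0.28 ± 0.83 in KO and WT cells. All 3 had probes bright on all 4 arrays. Without treatment Atp5k was higher in KO than in WT cells by 0.30 ± 0.60, with 23 of 32 probes that way, and Atp5l differed by -0.25 ± 0.49.

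Outside the named subunits, 39 of 43 other genes of the pathway had values: cytochromes c, assembly factors, and regulators of the pathway's transcription. Of them 14 passed limma for decitabine, all higher, a count near the background of 29.8% of all genes that were higher. For genotype 0 of the 39 passed, where 4.09% of all genes did. At an unadjusted p under 0.05 for genotype there were 10 of the 39, beside 4324 of all 18332 genes. Sco2, a copper chaperone for complex IV, was called higher with decitabine in WT cells, with ratios of -0.26 in KO decitabine, -0.18 in WT decitabine, -0.47 in KO untreated and -1.43 in WT untreated cells. Its bright probes, of 15, numbered 1 in KO decitabine, 6 in WT decitabine, 1 in KO untreated and 0 in WT untreated cells. Cycs and Cyct, the somatic and testis cytochromes c, passed limma for decitabine with effects of 0.64 (SE 0.12, adjusted p = 0.00659) and 0.48 (SE 0.12, adjusted p = 0.0186).

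Nuclear respiratory factor 1 and ETS family factors are known to bind many promoters of this pathway. In RefSeq promoters of GRCm38.p6 (250 bases before to 50 after a start), 67 members were found. The motif of nuclear respiratory factor 1, on either strand, was found in 16 of the 67 (23.9%) and in 5.19% of 27025 genes with a promoter there. The ETS letters CCGGAAG, also on either strand, were in 17 (25.4%) and in 9.93% of all genes. Each motif was searched for separately. Both are matches of letters only.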

How the data were processed

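MeDIP (Cy3) and input (Cy5) DNA of 4 cultures was hybridised to 1 Agilent promoter array per culture. Each file holds the processed signal intensity of both channels and a log10 ratio per spot, deposited as Agilent Feature Extraction 10.5 wrote them, per the submitters' processing notes. The software had already subtracted background and normalised dyes. The deposited intensity values were turned here into log2 MeDIP over input, replicate spots were merged by their mean, and the median of the 520554 probes was subtracted array by array. Probes with input well above background and no outlier flag on all 4 arrays were kept (328399, 63.1%), and genes with at least 3 were averaged. The deposited log10 ratio served as an alternative.

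Positions were taken from the files on mm9, where 12989 of 12989 probes compared had the genome's letters. limma 3.58.1 in R 4.3.3 fitted treatment and genotype over 18332 genes with Benjamini-Hochberg adjustment at 0.05. On simulated data for the decitabine comparison, with 18332 genes, the fit recovered 49 of 50 genes changed by 0.5 on the log2 scale and 50 of 50 at each larger change, with 9 false calls among the unchanged genes. The simulated noise had the same spread for every gene, with no surrogate values and no shift of whole arrays. The simulation therefore does not show how well the fit performs on the real arrays. The number of arrays limits the precision.

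The members, the gene lists and the tests were chosen with earlier results of these data known. Named genes were, per comparison, the 3 highest and 3 lowest differences among members with a probe bright on both arrays, the isoform pairs, complex II, the X-linked members, the 5 largest limma effects of decitabine and called genes; Uqcrq and the other genes named beside these were chosen after their values were seen. A member that the rule names is not reported here. Alternatives were the deposited log ratio, loess, normexp with an offset of 50, centring on bright probes, the median over probes, no input filter, probes bright on both arrays and CpG-dense windows alone. The authors' series-wide value table was not used here, since its rows could not be tied to probes.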

Additional observations from a re-analysis of the deposited data

Results flagged for a closer look

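Among the members described gene by gene, 9 moved in opposite directions with decitabine in KO and WT cells. The difference between the responses was not tested for any of them, since each response rests on 1 array against 1. Atp5e, the epsilon subunit of the ATP synthase, changed by -0.11 in KO and 0.91 in WT cells, a response difference (KO minus WT) of -1.03. Atp5e had no probe bright on both arrays of either response. At its start site probe the ratio was higher with decitabine in both genotypes. That ratio was -0.20 with decitabine against -1.77 without in KO cells, and -1.02 against -2.86 in WT cells. Ndufb4, an accessory subunit of complex I, changed by 0.47 in KO and -0.06 in WT cells, a response difference (KO minus WT) of 0.53. Atp5e and Ndufb4 have the widest gaps of the 9, and the SDs over probes of the single responses are of the same order. Ndufs3, a core subunit of complex I, changed by -0.18 in KO and 0.21 in WT cells, a response difference (KO minus WT) of -0.38. Uqcrq, a small subunit of complex III, changed by 0.18 in KO and -0.21 in WT cells, a response difference (KO minus WT) of 0.38. Atp5j2, a membrane subunit of the ATP synthase, changed by 0.19 in KO and -0.14 in WT cells, a response difference (KO minus WT) of 0.34. Uqcrq had no bright probe on any array. Atp5k, a membrane subunit of the ATP synthase, changed by -0.04 in KO and 0.28 in WT cells, a response difference (KO minus WT) of -0.33. Sdha, the flavoprotein of complex II, changed by -0.06 in KO and 0.19 in WT cells, a response difference (KO minus WT) of -0.25. Its start site probe, described above, was higher with decitabine in both genotypes. Cox7b2, a testis isoform in complex IV, changed by -0.13 in KO and 0.08 in WT cells, a response difference (KO minus WT) of -0.21. Ndufa10, an accessory subunit of complex I, changed by -0.12 in KO and 0.06 in WT cells, a response difference (KO minus WT) of -0.18. Over all members, 20 of 83 (24.1%) had responses of opposite sign, against 20.0% of all genes, and the response difference ranged from -1.03 to 0.58 with a median of -0.14.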

How the results depend on the processing

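Each value rests on 1 array a group, and few MeDIP signals stood above background. No paired analysis was possible because each group has 1 array and the labels give no replicate numbers. The cause of the changes below was not tested. Centring on kept probes was added after seeing the data.

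Members called with decitabine in KO cells (0 above) numbered 7, all lower, with centring on bright probes (all genes 12.8% lower), 1 of 4 with a value where both arrays had to be bright (all genes 43.5% higher), and 4 of 17 in CpG-dense windows (all genes 20.1% higher). The median difference in KO cells was -0.10 with the deposited log ratio, -0.13 with loess, -0.67 with centring on bright probes, 0.87 over the 4 members bright on both arrays and 0.63 in CpG-dense windows. Members called in WT cells (2 above) numbered 1 with centring on kept probes (all genes 0.649% higher) and 3 with the median over probes (1.26%). They numbered 0 with loess (all genes 0.136% higher, 0.316% lower), normexp (0.633% higher), centring on bright probes (0.0927% higher, 2.11% lower) and no input filter (0.412% higher). In CpG-dense windows 1 was called (531 of all 5069 genes higher). The median in WT cells was -0.052 with loess and -0.31 with centring on bright probes.

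For KO minus WT under decitabine, 1 member (Atp5e) was called lower with the deposited log ratio (all genes 0.115%) and with centring on bright probes (all genes 0.605%), and 1 was called higher in CpG-dense windows (711 of all 5069 genes); the median was 0.060 with normexp, -0.34 with centring on bright probes, 0.40 over 20 members bright on both arrays and 0.63 in CpG-dense windows. Without treatment, 2 were called higher in CpG-dense windows (all genes 4.34%), and the median was -0.045 with centring on kept probes, -0.059 with loess and -0.011 with no input filter. No member had 3 probes bright on both arrays for decitabine in WT cells or for KO minus WT without treatment.

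In limma, 25 members passed for decitabine. The count was 5 with centring on kept probes (all genes 14.5%), and 0 with the deposited log ratio (1.46%) and with loess (0.0655%). An unadjusted p under 0.05 was reached by 7 members with the deposited log ratio (2002 of all 18332 genes) and 14 with loess (3058). Adjusted counts were 9 with normexp (20.7%), 47 with centring on bright probes (all lower, all genes 54.8% lower) and 4 with the median over probes (5.58%). They were 8 with no input filter (16.2%) and 9 of 17 in CpG-dense windows (56.8%). For genotype 1 member passed, against 0 with the deposited log ratio (all genes 1.03%), loess (0.109%) and the median over probes (0.262%). At an unadjusted p under 0.05 there were 2 members with the deposited log ratio (1408 of all 18332 genes), 11 with loess (2572) and 13 with the median over probes (2876). With normexp 3 passed, all higher (all genes 12.4% higher). With no input filter 5 passed, all lower (all genes 6.81% lower). In CpG-dense windows 5 of 17 passed, all higher (all genes 45.5% higher). The decitabine effect on both Cox4i1 and Ndufs1 was -0.11 with centring on bright probes, and the genotype effect on Uqcrq was 0.10 in CpG-dense windows. The limma effects followed under the alternatives were the 5 largest for decitabine, that of Cox6a2, and that of Uqcrq for genotype. Of their values there, 20 kept the direction and side of the threshold, 28 kept the direction only and 3 reversed. The other limma effects quoted above were not followed gene by gene. Over all genes, the median difference with decitabine was 0.21 in KO and 0.25 in WT cells, and -0.66 and -0.35 in KO and WT cells with centring on bright probes.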
